A study of Solanum lycopersicum with 12 samples.

Results

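Tomato fruit of the slnor line, sampled 7 days after the breaker stage (late slnor fruit), was compared with wild-type fruit sampled at breaker. The 6 libraries were taken by their labels, 3 of each kind, out of 12 in the series. Both kinds are Solanum lycopersicum cultivar Ailsa Craig grown in the same greenhouse regime, and slnor carries a CRISPR mutation of the transcription factor gene NAC-NOR (NOR) in that background. At breaker the first colour appears on the green fruit. The other 6 libraries, 3 from wild type (WT) 7 days after breaker and 3 from slnor at breaker, place the late slnor fruit against the course of normal ripening. The labels do not give the allele, the number of mutant lines or whether libraries stem from separate plants. The p-values below therefore cover the spread between these libraries and no more, and that spread may be technical. Genotype and stage differ together between late slnor and WT breaker fruit, and their contributions cannot be told apart. The comparison asks whether late slnor fruit holds the transcript levels of WT fruit that is only starting to ripen, or another set of levels.

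Ripening tomato fruit converts chloroplasts to chromoplasts, loses chlorophyll, accumulates lycopene, softens through cell wall enzymes and makes volatiles. These steps are driven by a burst of ethylene and by a network of transcription factors, among them NOR, the MADS-box factor RIN and the SBP-box factor CNR. Classical mutants at the NOR locus fail to ripen, whereas CRISPR alleles of NOR are known for partial ripening.

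Library totals were 50714230 to 57552548 counts in WT breaker fruit and 57880241 to 64580114 counts in late slnor fruit. The top 100 genes by count held 23.9% to 24.2% of each WT breaker library and 20.2% to 20.4% of each late slnor library. Levels are in CPM, which puts the counts of all libraries on the same total after TMM normalization and is not corrected for transcript length. Transcript of NOR (Solyc10g006880.3), the gene that is mutated in slnor, was found in all 12 libraries. It stood at 978, 969.5 and 955 CPM in WT breaker fruit, 776, 792 and 896 CPM in slnor breaker fruit, 459, 479.8 and 467 CPM in WT fruit 7 days later and 553, 577 and 515 CPM in late slnor fruit. A count over the whole gene does not read the CRISPR edit, so these values do not check the genotype. The label of fruit tissue was checked against E8 (Solyc09g089580.4), an ethylene-responsive gene of ripening fruit, which was read at 18106, 17892 and 17980 CPM in WT breaker fruit and 8292, 8208 and 8313 CPM in late slnor fruit.

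Markers of other tissues differed between the groups, and their part in the results below was not tested. The summed level of 19 light-harvesting and photosynthesis identifiers was 1630 to 1740 CPM in WT breaker fruit, 336 to 345 CPM in WT fruit 7 days later and 381 to 394 CPM in late slnor fruit. For 9 cuticle identifiers, markers of the epidermis, the sum was 727 to 765 CPM in WT breaker fruit, 171 to 173 CPM in WT fruit 7 days later and 322 to 341 CPM in late slnor fruit. Its largest members, CER6, Solyc03g065250.4 and CD2, had means of 292, 245 and 154 CPM in WT breaker and 107, 142 and 53.8 CPM in late slnor fruit. The low-level CD1, GPAT6, Solyc08g081220.1 and Solyc12g009490.3 were instead higher in late slnor fruit, and the remaining members were lower. The sum of 4 seed identifiers was 70.1 to 77.7 CPM in WT breaker fruit, 15.5 to 17.8 CPM in WT fruit 7 days later and 3.01 to 3.48 CPM in late slnor fruit. In WT breaker fruit nearly all of the seed sum came from 1 identifier, Solyc06g060840.1, with means of 70.5 CPM there and 0.417 CPM in late slnor fruit. The only other one detected, Solyc03g112440.1, was at 2.78 CPM in WT breaker, 1.36 CPM in WT 7 days later and 2.89 CPM in late slnor fruit. In late slnor fruit it made up most of the sum. ABI3, a regulator of seed maturation, and the remaining identifier had no count in any of the 12 libraries. In bulk tissue, fewer cells of a type and less RNA per cell cannot be told apart.

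Across the transcriptome, late slnor fruit did not lie nearest to WT breaker fruit. Distance was taken as the root mean square (RMS) difference of log2 CPM over 20070 tested genes, a description with no test. The 3 late slnor libraries had mean distances of 1.183, 1.203 and 1.205 from the WT breaker libraries. From the WT libraries of 7 days after breaker they stood at 1.079, 1.089 and 1.094. From the slnor breaker libraries they stood at 1.004, 1.023 and 1.028. Each late slnor library was furthest from WT breaker, nearer to WT of its own age, and nearest to slnor breaker fruit. Among themselves the late slnor libraries had mean distances of 0.546, 0.551 and 0.57, and the WT breaker libraries differed from each other by 0.611 on average. The 2 WT stages stood 1.378 apart. Slnor breaker libraries had a mean distance of 1.016 from WT breaker and 1.437 from WT 7 days later, so they were about as far from WT breaker as from late slnor fruit.

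**Figure D1:**
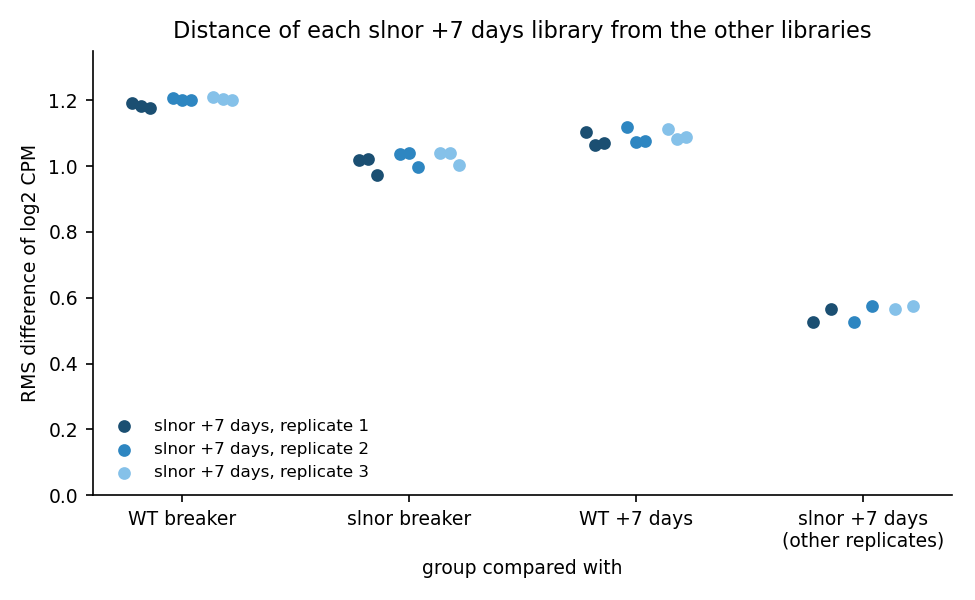
RMS difference of log2 CPM (vertical axis) between each late slnor library (3 shades) and each library of the 4 groups (horizontal axis), over 20070 genes. Every point for WT breaker lies at 1.176 or above, and no point for slnor breaker or WT 7 days after breaker exceeds 1.117, while replicates of late slnor lie between 0.526 and 0.575.

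Between late slnor and WT breaker fruit, 6045 genes were higher and 6033 lower (30.1% of the genes tested in each direction) at an adjusted p under 0.05 in edgeR's quasi-likelihood test with Benjamini-Hochberg adjustment. In both directions together, 60.2% of the genes tested were called, and the CPM of the groups did not overlap for 65.7% of them. At least 2-fold higher were 1572 and at least 2-fold lower 1966, together 17.6%. Against WT fruit of the same age, 5711 genes were higher (28.5%) and 5496 lower (27.4%), together 55.8%, and 14.6% were called at 2-fold or more. With libraries scaled by their totals in place of TMM, these became 7068 higher and 3932 lower, and the median over all genes shifted by 0.1 on the log2 scale. The WT stage change itself moved 6659 genes up (33.2%) and 6449 down (32.1%), together 65.3%, and 21.6% at 2-fold or more. The median size of the log2 fold change over all genes was 0.387 for late slnor against WT breaker, 0.334 for late slnor against WT of the same age and 0.447 for the WT stage change. These 3 comparisons share libraries and are not independent of each other.

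Fruit that is only delayed would be looked for at the WT breaker level or between the 2 WT stages. Each gene was tested for a level outside both stages, using the larger of the 2 quasi-likelihood p-values against WT breaker and against WT 7 days later, adjusted over all genes. Late slnor fruit lay above both stages for 2248 genes (11.2%) and below both for 2002 genes (9.98%), together 21.2%. Fruit younger than breaker is not among the 12 libraries, so these levels could not be set against those of green fruit. With library totals in place of TMM the split was 3054 above and 1345 below. At 2-fold or more from the nearer stage, 514 genes (2.56%) lay above and 301 genes (1.5%) below. The counterpart test, chosen after seeing the data, placed 2259 genes (11.3%) between the 2 stages, and 13561 genes were given no place by either test. Closeness was judged by whether the 95% interval of the fold change stayed within 1.5-fold. By that measure 9003 genes (44.9%) were close to WT breaker and 9800 genes (48.8%) close to WT 7 days later, and a gene could be close to both.

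The genes that normal ripening moves are given by place as a description with no test, because the comparisons share the WT libraries. Over all genes tested, the shares were 11.3% between, 11.2% above both and 9.98% below both. Of the 1406 genes that rose at least 2-fold in WT over the 7 days, 793 were given no place by either test. Late slnor fruit lay between the stages for 337, above both for 209 and below both for 67. It was within 1.5-fold of WT breaker for 131 of them and within 1.5-fold of WT 7 days later for 221. Of the 2922 genes that fell at least 2-fold in WT, 1707 were given no place. Late slnor fruit lay between the stages for 912, below both for 161 and above both for 142. By the same measure it was close to WT breaker for 304 of them and close to WT 7 days later for 375. Of 8320 genes whose WT stages stayed within 1.5-fold of each other, 109 lay at least 2-fold above both stages in late slnor fruit and 69 at least 2-fold below.

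**Figure D2:**
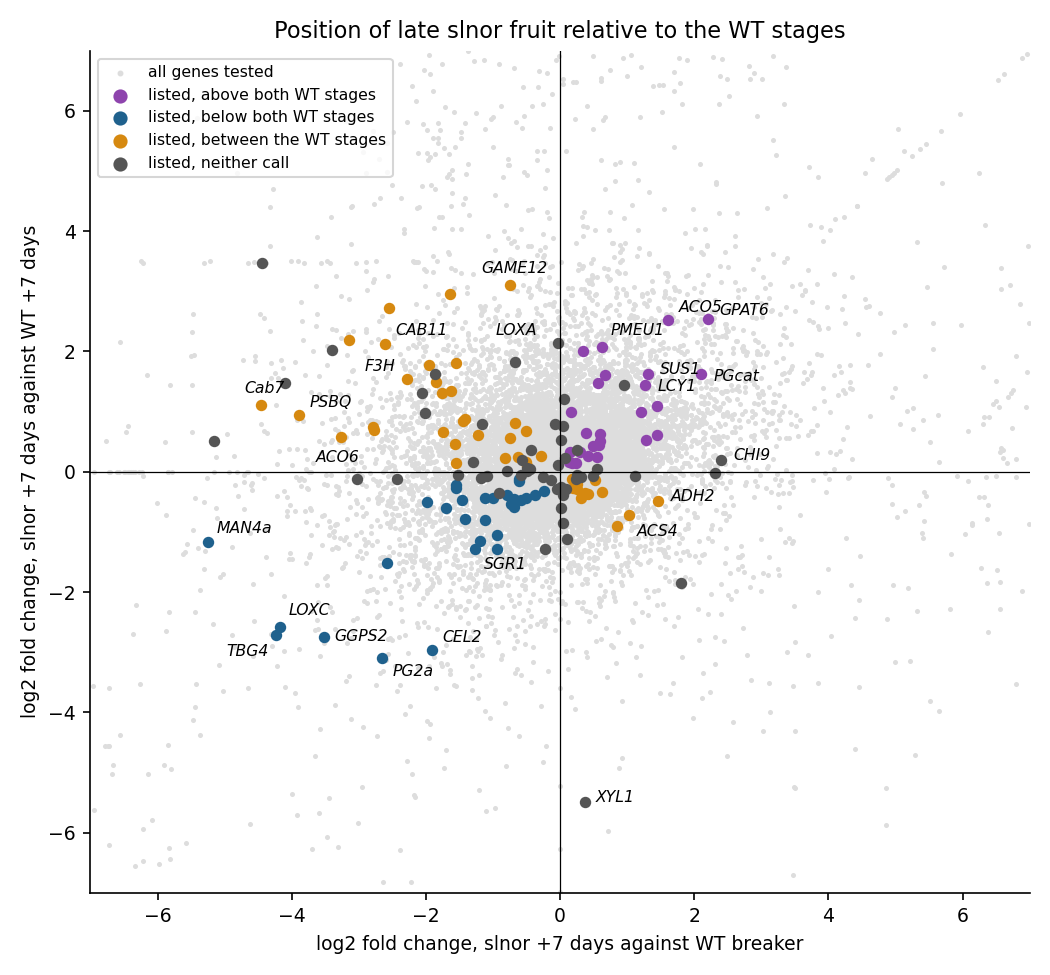
Log2 fold change of late slnor against WT breaker (horizontal axis) and against WT 7 days after breaker (vertical axis) for all genes tested (grey) and listed genes (coloured by place). Genes at upper right lie above both WT stages and genes at lower left below both, while genes in the other 2 quadrants have fitted levels between the stages. The 226 genes beyond a log2 value of 7, among them 4 listed genes, are not drawn.

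The lists below hold genes of known roles in ripening whose names were checked against RefSeq. Higher and lower compare late slnor fruit with WT fruit and describe no change over time within slnor. The level in slnor fruit at breaker is given beside many of the named genes as a value with no test. Where it is not given, the late slnor level is not to be read as particular to the later stage. Over all genes tested, 30.1% were higher and 30.1% lower than at WT breaker. Against WT of the same age, 28.5% were higher and 27.4% lower, and 8863 of 20070 genes were not called. By place, 11.2% lay above both stages, 9.98% below both and 11.3% between, and 44.9% were close to WT breaker. The counts in each list, for which no test was made, are to be read against these shares. Genes named from the lists follow a fixed rule of anchors and largest changes, and those added because of their values are named as such.

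Among 17 tested ripening transcription factors, 8 were higher and 6 lower in late slnor than in WT breaker fruit, with a median log2 fold change of 0.04 against 0 for all genes tested. Late slnor fruit lay above both WT stages for 5 of them, below both for 3 and between for 2. RIN (Solyc05g012020.4), the MADS-box regulator of ripening, stood at 654, 606 and 608 CPM in WT breaker fruit and 651, 644 and 628 CPM in late slnor fruit. The groups overlapped (log2 fold change 0.043, SE 0.041, edgeR adjusted p = 0.393), with a 95% interval of -0.045 to 0.13. Scaling by library totals gave a call, at a log2 fold change of 0.128 (edgeR adjusted p = 0.00846). In WT fruit 7 days later RIN was read at 844, 843 and 827 CPM, above all 3 late slnor libraries, and in slnor fruit at breaker at 297, 279 and 316 CPM, below them. CNR (Solyc02g077920.4) stood at 410.3, 419 and 408 CPM in WT breaker and 439, 432 and 428 CPM in late slnor fruit. The late slnor libraries were higher without overlap, but the difference was 1.05-fold and its adjusted p lay just under the threshold (log2 fold change 0.07, SE 0.029, edgeR adjusted p = 0.0493). The call was lost in 14 of the other settings tried. At breaker, slnor fruit held 306 ± 7.69 CPM. NOR itself lay between the WT stages, lower than at WT breaker (log2 fold change -0.82, SE 0.048, edgeR adjusted p = 1.82e-10) and higher than in WT of its own age (log2 fold change 0.23, SE 0.048, edgeR adjusted p = 0.000705).

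Some other regulators were at least 2-fold lower than at WT breaker. AP2a (Solyc03g044300.3), which holds back ethylene synthesis during ripening, was at 529, 527 and 520.2 CPM in WT breaker fruit and 255, 268 and 262 CPM in late slnor fruit. No late slnor library reached a WT library of either stage, since WT fruit 7 days later was read at 357, 351 and 356 CPM (below both stages, adjusted p = 3.85e-09). Breaker fruit of slnor was lower than late slnor fruit in every library, at 216, 217 and 223 CPM. DML2 (Solyc10g083630.2), the DNA demethylase that removes methylation from ripening genes, was read at 2157, 2312 and 2264 CPM in WT breaker fruit and 1050.3, 1052 and 1062 CPM in late slnor fruit (log2 fold change -1.09, SE 0.03, edgeR adjusted p = 7.52e-15). It was not called different from WT of the same age, 1101 ± 29.4 CPM (log2 fold change -0.062, SE 0.029, edgeR adjusted p = 0.0859), and slnor fruit at breaker was at 1228 ± 3.71 CPM. The MADS-box genes FUL2 and TAGL1, chosen after their values were seen, left the WT range in opposite directions. FUL2 was at 191 ± 1.44 CPM against 127 ± 6.09 CPM at WT breaker and 123 ± 2.57 CPM in WT 7 days later (above both, adjusted p = 1.35e-09), with slnor breaker fruit at 148 ± 1.28 CPM. TAGL1 was at 133 ± 1.77 CPM against 221 ± 11.4 CPM and 194 ± 2.09 CPM (below both, adjusted p = 7.81e-09), with slnor breaker fruit at 102 ± 3.09 CPM. Values of the form mean ± SD are over 3 libraries throughout.

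Other regulators, also chosen after their values were seen, showed other places. NOR-like1, a NAC factor related to NOR, was at 139.6 ± 12.2 CPM against 148 ± 1.77 CPM at WT breaker and 80.4 ± 1.92 CPM in WT 7 days later. It was not called different from WT breaker (log2 fold change -0.082, SE 0.048, edgeR adjusted p = 0.154) and was higher than in WT of the same age (log2 fold change 0.80, SE 0.049, edgeR adjusted p = 4.24e-10), with slnor breaker fruit at 185 ± 0.441 CPM. NAC1 lay between the stages, at 11.6 ± 0.273 CPM against 6.43 ± 0.3103 CPM and 21.7 ± 2.502 CPM (adjusted p = 5.07e-06), below 39.7 ± 3.78 CPM in slnor breaker fruit. The MADS-box gene FUL1 was at 698 ± 7.62 CPM against 585 ± 12.6 CPM at WT breaker, and it was not called different from WT of the same age, 724 ± 12.9 CPM (log2 fold change -0.054, SE 0.038, edgeR adjusted p = 0.245). Slnor fruit at breaker was at 231 ± 14.5 CPM. TAG1, another MADS-box gene, was at 179.9 ± 5.37 CPM, above 137 ± 5.28 CPM and 116 ± 2.21 CPM (adjusted p = 2.4e-07).

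The genes of ethylene synthesis divided by family member. Ethylene is made from the intermediate ACC, which ACC synthases (ACS) form and ACC oxidases (ACO) convert. Of 10 tested members, 4 were higher and 6 lower than at WT breaker, with a median log2 fold change of -1.16. Below both WT stages lay 4 members, above both 2 and between them 2. ACS2 (Solyc01g095080.3), a main ACC synthase of ripening fruit, stood at 869, 882 and 852 CPM in WT breaker fruit, 837, 849 and 842 CPM in WT fruit 7 days later and 377, 393 and 366 CPM in late slnor fruit. The WT stages were not called different from each other (log2 fold change -0.042, SE 0.047, edgeR adjusted p = 0.461), and late slnor fruit lay 2.23-fold below the nearer of them (adjusted p = 1.22e-11). At breaker, slnor fruit was lower still, at 227, 207 and 247 CPM. ACS4 (Solyc05g050010.3), the other main ripening form, stood at 159, 159.6 and 153 CPM in WT breaker fruit and 311, 335 and 313 CPM in late slnor fruit. It was higher in every late slnor library (log2 fold change 1.02, SE 0.035, edgeR adjusted p = 1.26e-13) and lower than 525, 528 and 525 CPM of WT 7 days later (between the stages, adjusted p = 1.93e-10), with slnor breaker fruit at 169.8 ± 4.18 CPM.

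Among ACC oxidases, ACO6 (Solyc02g036350.3) was at 1329, 1311 and 1310 CPM in WT breaker fruit and 138, 136 and 137 CPM in late slnor fruit (log2 fold change -3.27, SE 0.069, edgeR adjusted p = 3.53e-16). WT fruit was at 91.96 ± 3.65 CPM 7 days after breaker and slnor fruit at 893 ± 122 CPM at breaker. The late slnor level lay between the stages (adjusted p = 8.82e-06), and its mean was nearer to the later WT mean, which was not tested. ACO5 (Solyc07g026650.3) differed the other way, with 16.04, 18.2 and 18.4 CPM in WT breaker fruit and 51.1, 53.8 and 56.03 CPM in late slnor fruit. WT fruit 7 days later held 8.799, 9.87 and 9.26 CPM, and the late slnor libraries lay above both stages (log2 fold change 1.61, SE 0.12, edgeR adjusted p = 4.16e-09 against WT breaker). Breaker fruit of slnor was higher still, at 119 ± 27.8 CPM. The transcript ACS3 (Solyc02g091990.3) gave no count in the WT libraries of either stage but 0.107, 0.609 and 0.765 CPM in late slnor fruit, at least 25.8-fold above WT breaker with 3 counts over the WT group as its floor. Breaker fruit of slnor already held 0.594 ± 0.324 CPM. ACS8 (Solyc03g043890.3) had no count in WT breaker fruit either and was read at 0.2899, 0.423 and 0.244 CPM in late slnor fruit, at least 16.7-fold higher, beside 0.352 ± 0.0454 CPM in WT 7 days later. In slnor breaker fruit ACS8 had no count. Both transcripts were rare, and these bounds cover counting error only. The 4 members below both stages were ACS2 and the oxidases ACO1, ACO3 and ACO4, the last 3 chosen after their values were seen. ACO1, the main oxidase of ripening fruit, was at 1557 ± 6.996 CPM in late slnor fruit against 4582 ± 148 CPM at WT breaker and 1809.7 ± 39.5 CPM in WT 7 days later (adjusted p = 1.41e-05), and at 3622 ± 88.5 CPM in slnor breaker fruit.

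Of 16 tested genes of ethylene perception and response, 8 were higher and 7 lower, with a median log2 fold change of 0, and 9 were within 1.5-fold of WT breaker. By the tests of place, which overlap with that count, 6 members lay above both stages, 3 below both and 4 between. The ethylene response genes E4 and E8 were among the lower ones. E4 (Solyc03g111720.3), an ethylene-induced fruit gene, stood at 5515, 5174 and 5431 CPM in WT breaker fruit, 2520, 2431 and 2564 CPM in WT fruit 7 days later and 1571, 1600.1 and 1776 CPM in late slnor fruit. Late slnor fruit lay below every WT library (below both stages, adjusted p = 1.38e-08) and below slnor breaker fruit, at 2419 ± 124 CPM. E8 was 2.18-fold lower than at WT breaker (log2 fold change -1.12, SE 0.035, edgeR adjusted p = 3.87e-14) and also below WT of the same age, at 11205 ± 156 CPM (below both, adjusted p = 2.89e-08), with slnor breaker fruit at 10116 ± 693 CPM. The receptor gene NR (never-ripe) lay below both stages as well, at 840.03 ± 17.3 CPM against 1351 ± 19.4 CPM and 1155 ± 17.3 CPM (adjusted p = 1.83e-08). NR, EIL4 and ETR5 were chosen after their values were seen. EIL4, a transcription factor of ethylene signalling, was at 268 ± 4.14 CPM against 179 ± 8.77 CPM and 197 ± 5.12 CPM (above both, adjusted p = 6.23e-08). The receptor gene ETR5 was at 16.5 ± 0.2202 CPM against 10.9 ± 0.772 CPM and 11.6 ± 1.09 CPM (above both, adjusted p = 0.000159).

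Of the carotenoid genes up to lycopene, 6 of 11 tested were higher and 4 lower than at WT breaker, with a median log2 fold change of 0.09. Lower than in WT of the same age were 9 of the 11, where 27.4% of all genes tested were. PSY1 (Solyc03g031860.3), the phytoene synthase of fruit, was read at 8834, 8594 and 8453 CPM in WT breaker fruit and 6039.8, 6059 and 6077 CPM in late slnor fruit. The late slnor libraries were 1.42-fold lower without overlap and below WT 7 days later too, at 8165 ± 99.6 CPM (below both, adjusted p = 3.29e-09). Slnor fruit at breaker was at 4712 ± 203 CPM. A larger difference was seen for GGPS2 (Solyc04g079960.1), a geranylgeranyl diphosphate synthase that supplies the substrate of PSY1. It stood at 125, 115 and 128 CPM in WT breaker fruit, 72.4, 69.8 and 72.4 CPM in WT 7 days later and 10.2, 10.1 and 11.7 CPM in late slnor fruit. Late slnor fruit was 11.5-fold below WT breaker and 6.705-fold below WT of its own age (log2 fold change -3.52, SE 0.068, edgeR adjusted p = 1.13e-16 against breaker). At breaker, slnor fruit was at 24.4, 21.1 and 24.1 CPM, also below every WT library.

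Past lycopene, 3 of 11 tested genes were higher and 5 lower than at WT breaker, and 6 were higher than in WT of the same age with 1 lower. LCY1 (Solyc04g040190.1), a lycopene beta-cyclase, was at 9.65, 11.3 and 10.9 CPM in WT breaker fruit and 25.6, 26.3 and 24.9 CPM in late slnor fruit. With WT 7 days later at 9.43 ± 0.309 CPM, late slnor fruit stood 2.41-fold above the nearer stage (adjusted p = 1.4e-08), and slnor breaker fruit was at 14.6 ± 2.22 CPM. ZEP (Solyc02g090890.4), zeaxanthin epoxidase, was at 76.8, 77.4 and 84.1 CPM in WT breaker fruit and 223, 222 and 205 CPM in late slnor fruit (log2 fold change 1.45, SE 0.053, edgeR adjusted p = 3.64e-13). It also exceeded WT of the same age, at 142 ± 1.78 CPM (above both, adjusted p = 7.2e-08), with slnor breaker fruit at 135 ± 10.5 CPM. VDE (Solyc04g050930.3), violaxanthin de-epoxidase, was at 41.8 ± 0.524 CPM at WT breaker and lower, at 14.2 ± 0.268 CPM, in late slnor fruit (log2 fold change -1.56, SE 0.076, edgeR adjusted p = 1.3e-11). WT 7 days later was at 10.2 ± 1.01 CPM, and slnor fruit was at 15.6 ± 1.49 CPM at breaker, near that of late slnor fruit. LCYE (Solyc12g008980.3), lycopene epsilon-cyclase, was at 2.23, 2.77 and 2.13 CPM in WT breaker fruit, 1.92, 1.51 and 1.84 CPM in slnor breaker fruit and 0.06102, 0.0676 and 0.0651 CPM in late slnor fruit, with WT 7 days later at 0.0421 ± 0.07299 CPM. That later WT value rests on reads in 1 library. The hydroxylase gene CrtR-b1, chosen after its values were seen, was close to its WT breaker level, at 70.2 ± 3.0 CPM against 68.1 ± 1.197 CPM, with a 95% interval of the log2 fold change of -0.068 to 0.15. WT fruit 7 days later was at 126 ± 3.29 CPM. Breaker fruit of slnor was at 33.1, 30.5 and 36.2 CPM, below every library of the other groups.

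Cell wall enzymes soften the fruit. Of 18 of their genes tested, 6 were higher and 10 lower than at WT breaker (median log2 fold change -0.48), 5 lay below both stages, 2 above both and 7 between. PG2a (Solyc10g080210.2), the main polygalacturonase of ripening fruit, which cuts pectin, was read at 7000.1, 6629 and 6387 CPM in WT breaker fruit and 8962, 9096 and 9111 CPM in WT fruit 7 days later. Late slnor fruit held 1078, 1070.5 and 1041 CPM. No late slnor library came near a WT library of either stage, and the group was 6.28-fold below WT breaker (log2 fold change -2.65, SE 0.038, edgeR adjusted p = 4.41e-18) and 8.52-fold below WT of its own age. Slnor fruit at breaker was lower still, at 226, 234 and 249.9 CPM. TBG4 (Solyc12g008840.2), a beta-galactosidase that trims pectin side chains, was at 499.5, 531 and 471 CPM in WT breaker fruit and 28.2, 26.5 and 25.3 CPM in late slnor fruit. WT fruit 7 days later was at 175 ± 2.17 CPM, and late slnor fruit was 6.54-fold below that (below both, adjusted p = 6.92e-16). The low level was already present in slnor fruit at breaker, at 22.5, 23.8 and 22.4 CPM. MAN4a (Solyc01g008710.5.1), an endo-mannanase acting on hemicellulose, was at 1506, 1417 and 1404 CPM in WT breaker fruit and 40.6, 38.3 and 35.3 CPM in late slnor fruit. WT fruit 7 days later was at 85.1, 84.6 and 85.9 CPM and slnor fruit at breaker at 61.7, 44.4 and 66.4 CPM, and late slnor fruit was 2.24-fold below the later WT stage (adjusted p = 7.25e-08).

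Other wall genes, chosen after their values were seen, show the range of places within this list. The cellulase gene CEL2 was at 175 ± 4.96 CPM, below 654 ± 15.2 CPM at WT breaker and 1364 ± 14.9 CPM in WT 7 days later (adjusted p = 2.15e-13), and slnor breaker fruit was at 54.01 ± 6.34 CPM. The xylosidase gene XYL1 rose in WT from 2.13 ± 0.296 CPM to 125 ± 3.64 CPM. It was at 0.544 ± 0.293 CPM in slnor breaker fruit and 2.75 ± 0.649 CPM in late slnor fruit, not called different from WT breaker (log2 fold change 0.37, SE 0.19, edgeR adjusted p = 0.101). Its 95% interval ran from -0.028 to 0.78, wider than the 1.5-fold limit of closeness. The pectin methylesterase gene PMEU1 was at 21.6 ± 0.297 CPM, above 14.03 ± 0.865 CPM and 5.14 ± 0.341 CPM (adjusted p = 1.24e-06). The pectin methylesterase gene PE1 was at 1970.3 ± 24.3 CPM, with 3138 ± 40.7 CPM at WT breaker, 2561 ± 106 CPM at slnor breaker and 1128 ± 32.98 CPM in WT 7 days later (between the stages, adjusted p = 1.54e-10).

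**Figure D3:**
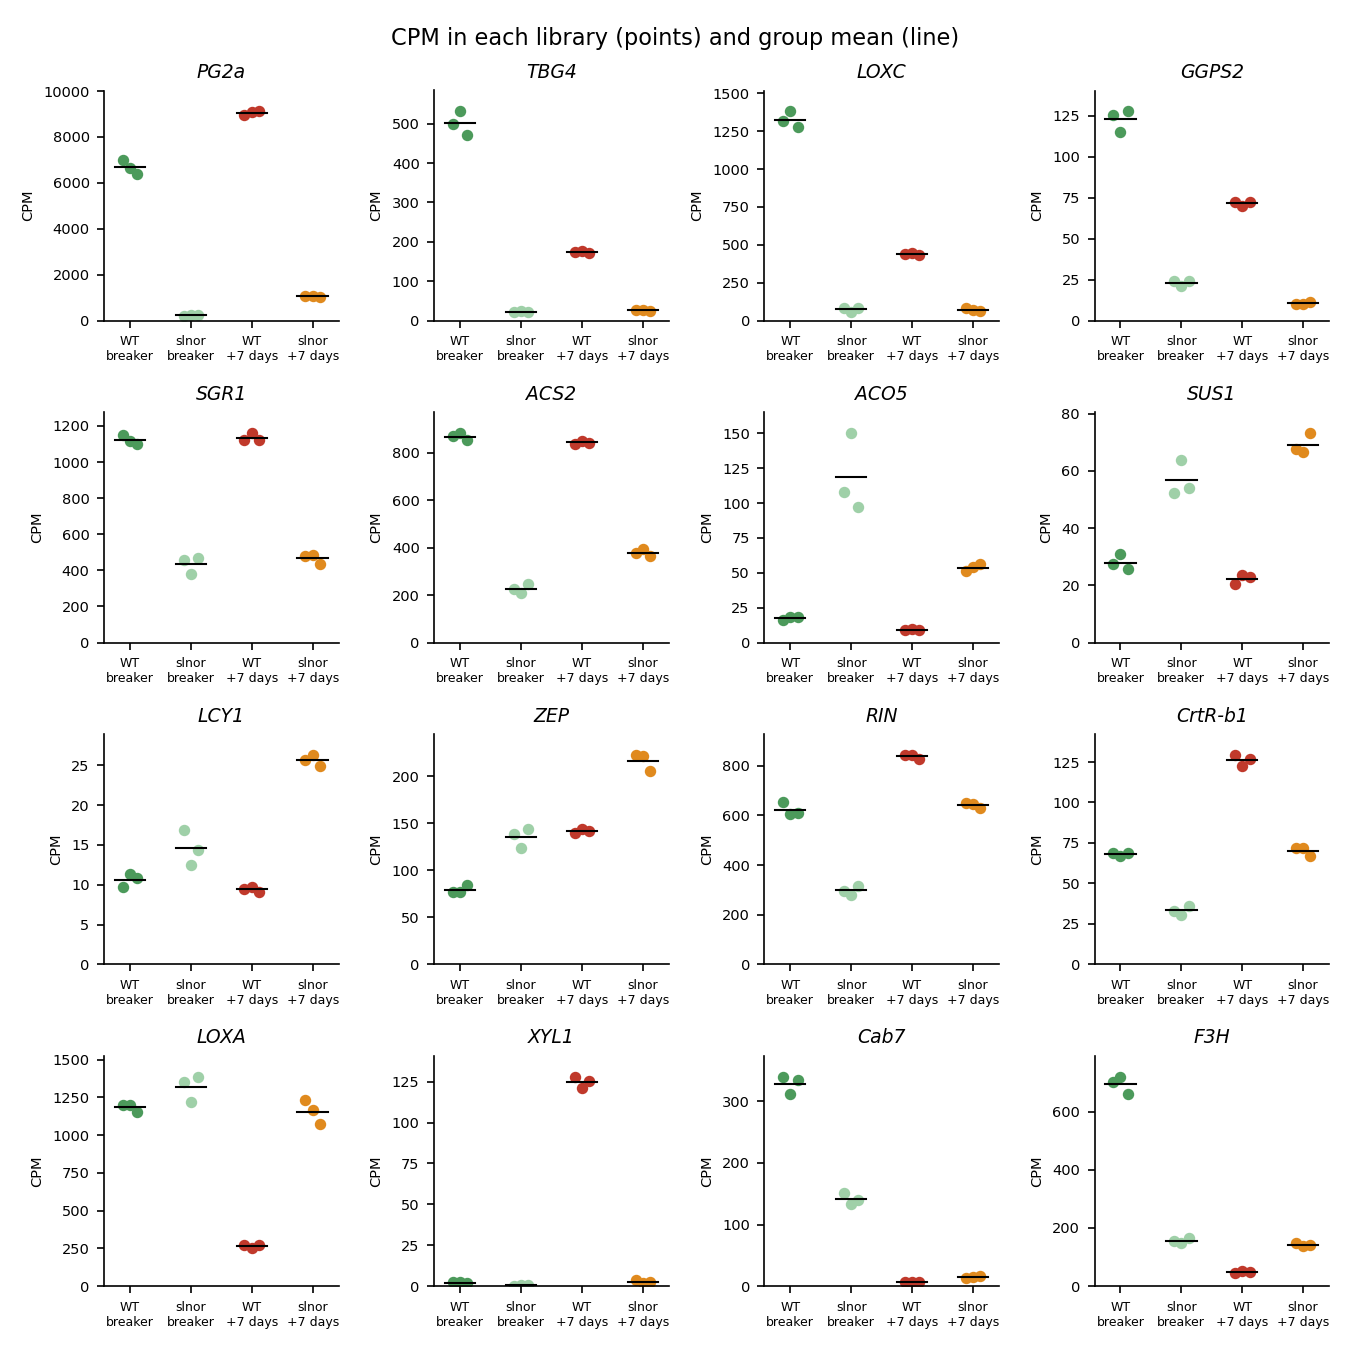
CPM in each of the 12 libraries (points, 3 per group) with the group mean (line) for 16 genes, on linear axes that start at 0. In late slnor fruit PG2a, TBG4, LOXC, GGPS2, SGR1 and ACS2 lie below every WT library and ACO5, SUS1, LCY1 and ZEP above every WT library. RIN, CrtR-b1 and LOXA lie within 1.5-fold of WT breaker, XYL1 was not called different from it, and Cab7 and F3H lie between the WT stages.

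Of 14 tested light-harvesting and photosynthesis genes, 13 were lower than at WT breaker and none was higher, with a median log2 fold change of -2.58. Against WT of the same age, 7 were higher and 4 lower, and the median was 0.87. Cab7 (Solyc10g006230.3), a chlorophyll a/b binding protein gene, was at 340.2, 312 and 335 CPM in WT breaker fruit, 151, 133 and 140.1 CPM in slnor breaker fruit and 13.8, 15.2 and 16.1 CPM in late slnor fruit. Late slnor was 21.9-fold below WT breaker (log2 fold change -4.46, SE 0.064, edgeR adjusted p = 4.41e-18), and WT fruit 7 days later was lower again, at 6.89, 7.399 and 6.65 CPM. Cab-3C (Solyc03g005780.3) was at 1.57, 2.52 and 1.81 CPM in WT breaker fruit and 0.168, 0.169 and 0 CPM in late slnor fruit, and slnor breaker fruit was already at 0.189 ± 0.184 CPM. Late slnor fruit was not called different from WT of the same age, 0.0373 ± 0.0331 CPM (edgeR adjusted p = 0.306). Cab5 (Solyc12g006140.2) was at 2.598, 2.16 and 3.07 CPM in WT breaker fruit and 0.997 ± 0.151 CPM in slnor breaker fruit. It had no count in any late slnor library, at least 162-fold lower than WT breaker, and none in WT 7 days later. Members of the Cab and RBCS families are close copies, and how reads shared between copies were counted was not given in the sources used here. At breaker, slnor fruit already had a lower sum of these markers than WT breaker fruit, 940 to 1040 CPM. SGR1 (Solyc08g080090.3), the stay-green protein gene required for chlorophyll breakdown, was also lower, but not along the WT course. It stood at 1150.5, 1116 and 1100.3 CPM in WT breaker fruit, 1122, 1159.9 and 1122 CPM in WT 7 days later and 480.3, 486 and 437 CPM in late slnor fruit. The WT stages overlapped and were not called different (log2 fold change 0.016, SE 0.057, edgeR adjusted p = 0.82), and late slnor fruit was 2.398-fold below the nearer stage (adjusted p = 4.08e-11). Breaker fruit of slnor was at 456, 382 and 466 CPM, overlapping late slnor fruit.

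Of 10 tested flavonoid and phenylpropanoid genes, 9 were lower and 1 higher than at WT breaker (median log2 fold change -1.59), 7 were higher than in WT of the same age, and 6 lay between the stages. F3H (Solyc02g083860.3), flavanone hydroxylase, was at 702, 721 and 659.5 CPM in WT breaker fruit and 148, 139 and 140.2 CPM in late slnor fruit. WT 7 days later was at 46.1, 52.98 and 47.8 CPM, with no overlap between these groups (between the stages, adjusted p = 4.59e-12). Slnor fruit at breaker was already at 155, 149 and 167 CPM. CHS1 (Solyc09g091510.3), chalcone synthase, was at 983, 1033 and 968 CPM in WT breaker fruit and 150.2, 138 and 144 CPM in late slnor fruit, with WT 7 days later at 85.7 ± 1.22 CPM (between the stages, adjusted p = 3.75e-06). At breaker, slnor fruit held 114, 97.03 and 136 CPM, so its low level too was present before the later stage. CHI1 (Solyc05g010320.4), a low-level chalcone isomerase transcript, was at 1.46, 1.98 and 2.41 CPM in WT breaker fruit and 0.2899, 0.744 and 0.423 CPM in late slnor fruit (log2 fold change -2.01, SE 0.57, edgeR adjusted p = 0.00559), with slnor breaker fruit at 1.87 ± 0.108 CPM. It was not called different from WT of the same age, 0.254 ± 0.291 CPM (edgeR adjusted p = 0.218). The regulator MYB12 was at 25.7 ± 2.397 CPM, between 75.7 ± 5.17 CPM and 7.33 ± 0.645 CPM, with slnor breaker fruit at 11.6 ± 1.002 CPM. The exceptions, PAL3 and 4CL, act early in the phenylpropanoid route and, like MYB12, were chosen after their values were seen. PAL3 was at 534 ± 28.5 CPM, above 359 ± 10.5 CPM and 192 ± 7.17 CPM (adjusted p = 6.05e-09). 4CL was at 166 ± 3.26 CPM, below 318 ± 7.77 CPM and 344 ± 3.704 CPM (adjusted p = 1.3e-12).

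Glycoalkaloid genes, which make the bitter steroidal defence compounds of green fruit, were lower in 7 of 8 tested (median log2 fold change -1.96), and none was higher. Against WT of the same age 5 were higher and none lower. The median was 2.11, or 1.82 with the gene that had no count in WT set at its bound. GAME11 (Solyc07g043420.3) was at 18.6, 19.7 and 18.96 CPM in WT breaker fruit, 17.4, 18.3 and 17.1 CPM in slnor breaker fruit and 2.23, 2.23 and 2.03 CPM in late slnor fruit, with WT 7 days later at 0.152, 0.876 and 0.348 CPM (between the stages, adjusted p = 2.6e-05). GAME11 is a dioxygenase of the route, GAME18 a glycosyltransferase and GAME4 a cytochrome P450. GAME18 (Solyc07g043500.1) was at 3.73, 1.703 and 2.13 CPM in WT breaker fruit, 3.17 ± 0.996 CPM in slnor breaker fruit and 0.168, 0.203 and 0.342 CPM in late slnor fruit. WT 7 days later was lower again, at 0.057 ± 0.0502 CPM (edgeR adjusted p = 0.0165 against late slnor). GAME4 (Solyc12g006460.2) was at 0.433, 0.6705 and 0.415 CPM in WT breaker fruit and 0.608 ± 0.161 CPM in slnor breaker fruit. Late slnor fruit held 0.06102, 0 and 0 CPM, so that its late slnor value rests on reads in 1 library. In WT 7 days later GAME4 had no count.

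Of 5 tested cuticle genes, 2 were higher and 3 lower than at WT breaker, and 4 were higher than in WT of the same age. CD1 (Solyc11g006250.2), the cutin synthase gene, was at 0.784, 0.779 and 0.6602 CPM in WT breaker fruit and 4.53, 4.904 and 3.84 CPM in late slnor fruit, above 0.0254 ± 0.04398 CPM in WT 7 days later (adjusted p = 1.85e-06), with slnor breaker fruit at 2.58 ± 0.416 CPM. GPAT6 (Solyc09g014350.3), an acyltransferase of cutin synthesis, was at 0.598, 0.308 and 0.226 CPM in WT breaker and 1.78, 1.98 and 1.46 CPM in late slnor fruit, also above both stages (adjusted p = 0.00108), with slnor breaker fruit at 1.08 ± 0.2004 CPM. Both were higher in every late slnor library than in any WT breaker library, from low levels. TTS1 (Solyc12g006530.2), a triterpenoid synthase of cuticular wax, was at 23.2, 24.97 and 24.4 CPM in WT breaker fruit, 13.4 ± 1.41 CPM in slnor breaker fruit and 5.68, 7.34 and 5.68 CPM in late slnor fruit, with WT 7 days later at 1.83 ± 0.398 CPM. The summed epidermis markers given above were lower in late slnor than in WT breaker fruit, whereas CD1 and GPAT6 were higher.

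Of 10 tested genes of flavour volatiles, 2 were higher and 4 lower than at WT breaker, and 4 lay below both stages. LOXC (Solyc01g006540.4), the lipoxygenase that starts the synthesis of fatty-acid volatiles in fruit, was at 1314, 1379 and 1276 CPM in WT breaker fruit, 440.1, 449 and 433 CPM in WT 7 days later and 83.1, 74.02 and 63.5 CPM in late slnor fruit. Late slnor fruit was 17.99-fold below WT breaker (log2 fold change -4.17, SE 0.12, edgeR adjusted p = 1.26e-14) and 5.99-fold below WT of its own age. Breaker fruit of slnor was at 81.6, 58.5 and 87.5 CPM, overlapping late slnor fruit. HPL (Solyc07g049690.3), hydroperoxide lyase of the same route, was at 315, 316 and 310.4 CPM in WT breaker and 116, 118 and 108 CPM in late slnor fruit, with WT 7 days later at 159 ± 1.54 CPM (below both, adjusted p = 1.11e-08) and slnor breaker fruit at 167 ± 2.81 CPM. CTOMT1 (Solyc10g005060.4), a catechol methyltransferase that makes guaiacol, was at 6.56, 7.85 and 5.53 CPM in WT breaker and 1.098, 1.39 and 0.862 CPM in late slnor fruit (below both, adjusted p = 4.87e-05). WT 7 days later was at 3.18 ± 0.138 CPM and slnor breaker fruit at 3.35 ± 0.969 CPM. Chosen after their values were seen, 3 other genes showed other places. LOXA was close to its WT breaker level, at 1156 ± 80.8 CPM against 1183 ± 25.5 CPM and 1320.5 ± 88.1 CPM in slnor breaker fruit, with a 95% interval of the log2 fold change of -0.14 to 0.075, while WT fell to 264 ± 11.9 CPM. ADH2, an alcohol dehydrogenase, was at 6876 ± 90.5 CPM, with 2502 ± 54.4 CPM at WT breaker, 2148 ± 78.6 CPM at slnor breaker and 9579.9 ± 93.4 CPM in WT 7 days later (between the stages, adjusted p = 1.81e-09). LOXD was at 82.2 ± 2.92 CPM, above 35.5 ± 4.14 CPM and 41.2 ± 2.79 CPM (adjusted p = 4.82e-08).

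In sugar and starch metabolism 5 of 8 tested genes were higher and 2 lower than at WT breaker, and 3 lay above both stages. SUS1 (Solyc12g009300.3), a sucrose synthase that cleaves sucrose, was at 27.3, 30.9 and 25.6 CPM in WT breaker fruit, 20.5, 23.8 and 22.8 CPM in WT 7 days later and 67.6, 66.6 and 73.2 CPM in late slnor fruit. Every late slnor library lay above every WT library, 2.47-fold over the nearer stage (adjusted p = 1.45e-09), and slnor breaker fruit was at 56.8 ± 6.22 CPM. The starch synthase gene GBSS1, chosen after its values were seen, was at 119 ± 2.21 CPM, against 94.2 ± 1.76 CPM at WT breaker and 29.6 ± 1.38 CPM in WT 7 days later (above both, adjusted p = 3.59e-06). Of 4 tested abscisic acid genes, 2 were higher and 1 lower. CYP707A2 (Solyc08g005610.3), which breaks down abscisic acid, was at 139.6, 136 and 136 CPM in WT breaker fruit and 338, 335 and 326 CPM in late slnor fruit, above 231 ± 1.31 CPM in WT 7 days later (adjusted p = 2.41e-07), with slnor breaker fruit at 329 ± 32.1 CPM. NCED1, the main synthesis gene of this hormone in fruit and also chosen after its values were seen, lay between the stages at 269 ± 11.8 CPM, against 452 ± 19.01 CPM and 182 ± 4.26 CPM (adjusted p = 5.56e-06), with slnor breaker fruit at 465 ± 53.1 CPM.

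Of 4 tested pathogenesis-related genes, 3 were higher than at WT breaker and 1 lower, and 3 were not called different from WT of the same age. CHI9 (Solyc10g055810.2), a chitinase gene, was at 12.6, 14.3 and 14.8 CPM in WT breaker fruit and 76.5, 67.5 and 76.9 CPM in late slnor fruit beside 64.2 ± 5.71 CPM in WT 7 days later. Slnor fruit at breaker was higher than late slnor fruit in every library, at 104, 183 and 117 CPM. NP24 (Solyc08g080640.2), an osmotin-like gene, was at 248, 280.1 and 279 CPM in WT breaker fruit and 1277, 1287 and 1454 CPM in late slnor fruit beside 1356 ± 45.1 CPM in WT 7 days later and 651 ± 34.6 CPM in slnor breaker fruit. CHI3 (Solyc02g082920.4), another chitinase, was at 12.1, 9.64 and 13.5 CPM in WT breaker and 28.97, 34.8 and 31.7 CPM in late slnor fruit, above 14.9 ± 1.14 CPM in WT 7 days later (adjusted p = 2.65e-07) and above 7.38 ± 0.509 CPM in slnor breaker fruit. ASR1 (Solyc04g071610.4), an abscisic acid and ripening induced gene, was at 10349, 9832 and 9696 CPM in WT breaker fruit and 10779, 10620 and 10684 CPM in late slnor fruit. It was not called different (log2 fold change 0.10, SE 0.046, edgeR adjusted p = 0.0651), while WT of the same age was at 23280 ± 1380.1 CPM and slnor breaker fruit at 7868 ± 585 CPM. In the ASR list 1 of 3 tested genes was lower and none higher, and with library totals ASR1 was called higher (log2 fold change 0.188, edgeR adjusted p = 0.00144). Both senescence NAC genes tested, transcription factors tied to leaf ageing, lay below both stages. NAP1 (Solyc05g007770.3) was at 100.2, 87.6 and 87.2 CPM in WT breaker fruit and 53.6, 56.9 and 48.8 CPM in late slnor fruit, with WT 7 days later at 69.3 ± 1.27 CPM (adjusted p = 0.000237) and slnor breaker fruit at 83.5 ± 6.61 CPM. Of 3 heat shock genes, 1 was higher and 2 lower (1 lower with library totals), and HSFA3 (Solyc09g009100.4) was higher, at 49.5, 48.4 and 44.9 CPM against 22.04, 22.5 and 21.2 CPM at WT breaker. WT 7 days later was at 49.8 ± 3.37 CPM and slnor breaker fruit at 33.3 ± 1.05 CPM.

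**Figure D4:**
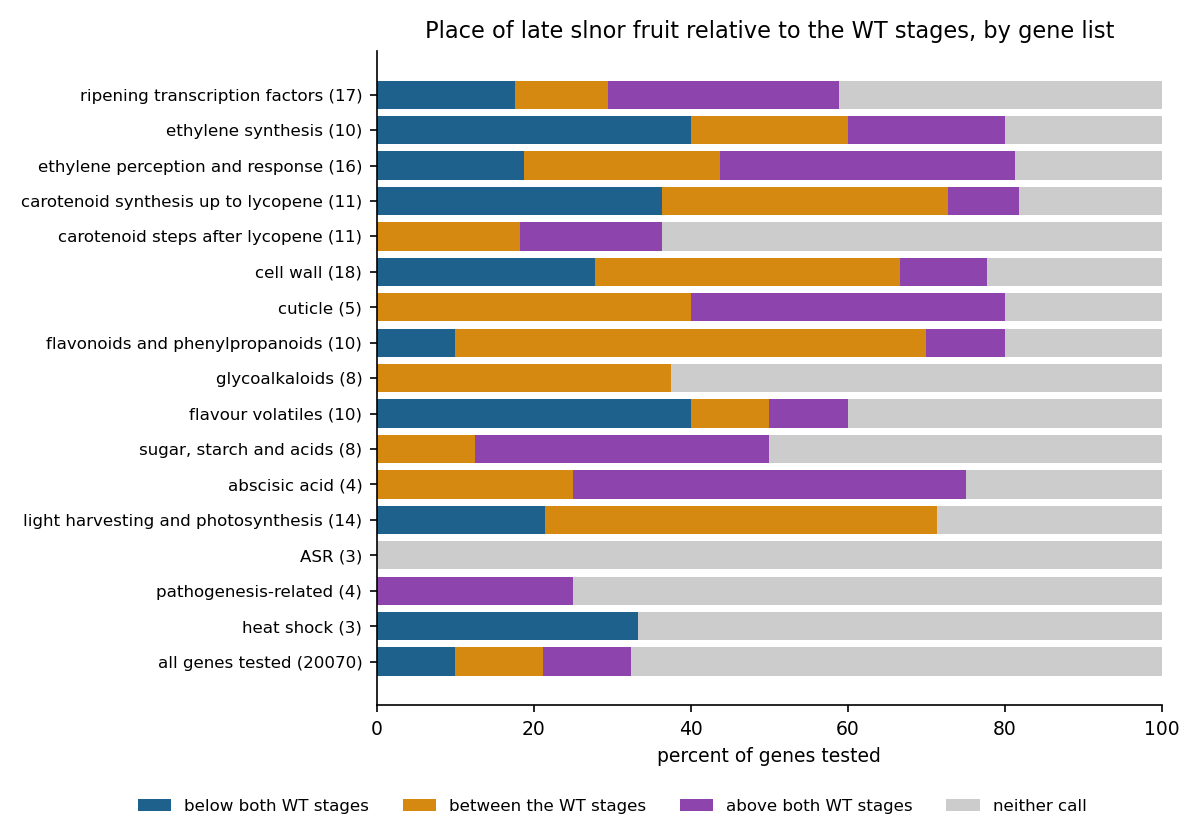
Percent of the tested genes of each list (number in brackets, lists of at least 3 genes) and of all genes tested that late slnor fruit placed below both WT stages, between them, above both or in no place. Over all genes tested 9.98% lie below both, 11.3% between and 11.2% above, and single genes weigh heavily in the lists of 3 to 5 genes.

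Outside the lists, identifiers are given without gene names. The largest fold above WT breaker with at least 10 CPM was that of Solyc01g081250.3, with no count at WT breaker and 39.6, 39.8 and 36.7 CPM in late slnor fruit, at least 2023-fold higher. It was at 8.93 ± 0.615 CPM in WT 7 days later and higher in slnor breaker fruit, at 84.7 ± 19.7 CPM. Solyc08g066140.3, next in size, had no count in WT breaker fruit and 26.99, 24.8 and 0 CPM in late slnor fruit, and in WT 7 days later it was read at 0, 33.8 and 31.7 CPM. It was present or at 0 from library to library within a group, and late slnor fruit overlapped WT breaker fruit at 0. The largest folds below WT breaker were those of Solyc01g109320.4 and Solyc08g083190.3. Solyc01g109320.4 was at 18.7, 21.7 and 19.96 CPM in WT breaker fruit, 0.03603 ± 0.0624 CPM in slnor breaker fruit and 0.06102, 0 and 0 CPM in late slnor fruit. Solyc08g083190.3 was at 20.9, 23.5 and 23.1 CPM, 0 ± 0 CPM and 0.06102, 0.4397 and 0 CPM in the same order. Both also fell in WT, to 0.248 ± 0.114 CPM (Solyc01g109320.4) and 0.11 ± 0.13 CPM (Solyc08g083190.3) 7 days after breaker. Against WT of the same age, late slnor fruit was lower for Solyc01g109320.4 (edgeR adjusted p = 0.00173). For Solyc08g083190.3 it was not called different (edgeR adjusted p = 0.672). Furthest above both WT stages were Solyc01g007020.4 at 9.95, 11.3 and 9.76 CPM, against 0.205 ± 0.166 CPM and 0.364 ± 0.173 CPM, and Solyc02g088240.4 at 199, 196 and 194 CPM, against 4.89 ± 0.795 CPM and 13.9 ± 0.763 CPM. Breaker fruit of slnor held 5.17 ± 2.2 CPM of Solyc01g007020.4 and 48.4 ± 8.56 CPM of Solyc02g088240.4. Furthest below both were Solyc03g095880.1 at 0.0763, 0.0338 and 0.0325 CPM, against 9.99 ± 1.17 CPM and 10.05 ± 0.238 CPM, and Solyc06g071580.3 at 0.336, 0 and 0.163 CPM, against 6.398 ± 0.747 CPM and 24.6 ± 1.797 CPM. Both were already low in slnor breaker fruit, at 0.0802 ± 0.0444 CPM (Solyc03g095880.1) and 0.141 ± 0.186 CPM (Solyc06g071580.3).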

How the data were processed

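RNA-seq of tomato fruit was analysed in 12 libraries, 3 in each of 4 groups. Raw counts per gene, 1 column per library, were deposited by the authors, and every test used them unchanged. The submitters' processing notes name HISAT, UMI-tools, StringTie and edgeR without versions or roles. The strand setting, the build, the annotation and whether counts are reads or molecules were not given in the sources used here. Tables of single libraries, also deposited by the authors, hold values taken here to be FPKM. The gene length that counts and FPKM imply varied by less than 1% between libraries for 100% of 7290 well-counted genes (1000 counts or more), and FPKM had no other use.

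Of 34075 listed genes, 24155 had a count, and the 12 totals spanned 50714230 to 69124795. No replicate pair agreed within sampling noise (chi-square over its degrees of freedom 4.66 to 14.18). Tests used R 4.3.3 and edgeR 4.0.16 (glmQLFit, glmQLFTest, TMM, filterByExpr) with 1 fit of all 12 libraries and 1 coefficient per group. Of these genes 20070 passed the filter, with 99.988% of the counts, at a common biological variation of 7.39%. Benjamini-Hochberg adjustment ran over those genes, with calls under 0.05. SE is the size of a log2 fold change over the root of its F statistic. Where a group had no count, a fold is a lower bound with 3 counts over that group's libraries. Log2 CPM for distances used a prior count of 2. DESeq2 1.42.0 was an alternative.

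No pairing by replicate number was seen: WT breaker and late slnor libraries of the same number had deviations correlated at -0.034 to 0.01, and other numbers at -0.031 to 0.049. With so few libraries per group, these values cannot exclude a shared plant, harvest or batch.

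The members and the gene lists were chosen with earlier results of these data known. Names were paired with 222 identifiers from published nomenclature, and 212 of these are in the table. Each pair was then compared with the RefSeq table of assembly SLM_r2.1 by symbol, chromosome and rank along it (within 7%), and 164 held. Lists count only those, whereas marker sums use every member in the table. Named genes are 8 anchors (NOR, RIN, CNR, PSY1, ACS2, ACS4, E8, PG2a). To these each list adds up to 3 members with the largest called change of at least 2-fold and no overlap of CPM (65.7% of tested genes do not overlap), otherwise its most abundant member, and up to 2 members furthest outside both WT stages. Outside the lists, 8 identifiers were taken by size.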

Additional observations from a re-analysis of the deposited data

How the results depend on the processing

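Under other scalings, no low-count filter, DESeq2, a fit of the compared groups only, the replicate number as a block and each library left out in turn, the counts of called genes stayed within 1.5 times those reported. Late slnor against WT breaker gave 11257 to 12210 calls (12078 as reported), levels outside both WT stages 3738 to 4419 (4250), and levels between them 1844 to 2392 (2259). With the replicate number as a block, late slnor against WT breaker gave 11861 calls and levels outside both stages 4137. No pairing by number was seen, since 1 of 6 libraries correlated best with its own number, but so few libraries cannot exclude it. Scaling by library totals raised the share of higher calls from 50% to 59.1% against WT breaker and from 51% to 64.3% against WT of the same age. Of the 970 alternative values of genes named by the fixed rule none reversed. Among the genes chosen after their values were seen, NOR-like1 kept its direction against WT breaker in 16 of 17 settings and LOXA in 15 of 17. CNR lost its call in 14 settings, ASR1 gained one in 6, and RIN gained one with library totals (log2 fold change 0.128, adjusted p = 0.00846). Of 101 listed genes given a place, 89 kept it in all 17 settings run; NOR, PG2a, ACS2, SGR1 and GGPS2 are among the 89, and PSBO, PME2.1 and EIL3 were the least steady. The order of distances (slnor breaker nearest, WT breaker furthest) held in 16 of 16 settings, while the values moved. Distances were 1.096 (WT 7 days later) and 1.037 (slnor breaker) with library totals, 1.038 (slnor breaker) without the filter, 1.468, 1.372 and 1.262 (WT breaker, WT 7 days later, slnor breaker) with a prior count of 0.5, and 0.991, 0.855 and 0.798 in the same order over genes of at least 1 CPM, a setting chosen after seeing the data. Leaving out each library in turn gave 1.205 to 1.214, 1.09 to 1.106 and 1.023 to 1.043. Levels between the stages were not run in the fit of the compared groups only. Counts near 0, as for ACS3, ACS8, GAME4 and GPAT6, limit the precision of those folds.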
